A study of Mus musculus with 9 samples.

Results

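Transforming growth factor beta (TGF-beta) signalling is represented here only by the RNA levels of 9 of its core genes. They are the ligands Tgfb1, Tgfb2 and Tgfb3, the receptors Tgfbr1, Tgfbr2 and Tgfbr3, and the Smads Smad2, Smad3 and Smad4. Activity of the pathway was not measured. The genes were taken by symbol from a table of raw gene counts with 51912 mouse genes, and all 9 were among the 17289 genes with enough counts to be tested. The table covers 5 E-cad-KO and 4 WT samples of tumour organoids, small epithelial fragments isolated from mammary tumours of FVB/NJ mice. All samples carried the MMTV::PyMT transgene, a viral oncogene driven by a mammary promoter, and the (R26)pCA::mT/mG allele, a Cre-switched fluorescent reporter. E-cad-KO organoids were Cdh1fl/fl, with Cre target sites in both copies of the E-cadherin gene, and WT organoids were Cdh1+/+. Organoids of both genotypes were given adeno-Cre, a virus that delivers Cre recombinase, overnight, and were then cultured for 48 h in collagen I with FGF2. Ages are not given in the labels. The design text calls the samples biological replicates, but the labels name no animals, and the p-values therefore reflect only how far these samples spread, which may be technical.

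TGF-beta ligands are made as latent precursors, released outside the cell and bound by a type II receptor (Tgfbr2), which then phosphorylates a type I receptor (Tgfbr1). The type I receptor phosphorylates Smad2 and Smad3, which join Smad4 and enter the nucleus to regulate transcription. In mammary epithelium the pathway is known both for restraining growth and for promoting a mesenchymal, invasive state. The comparison asks whether RNA levels of the genes that carry the signal differ once E-cadherin is targeted by Cre.

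None of the 9 genes passed the test between E-cad-KO and WT organoids. The edgeR quasi-likelihood test called 0 of 9 at a Benjamini-Hochberg adjusted p under 0.05, against 1.41% of all tested genes (0.908% higher and 0.503% lower in E-cad-KO). Of the 9, 6 had a positive and 3 a negative log2 fold change (E-cad-KO over WT), against 48.0% positive among all tested genes, and their median was 0.21 beside -0.01 for all tested genes. At an unadjusted p under 0.05 there were 5 members, 4 higher and 1 lower in E-cad-KO, beside 16.7% of all tested genes (8.74% higher and 7.99% lower). Only Smad3 had no overlap between the libraries of both groups, beside 8.11% of all tested genes. DESeq2 called 1 member, Smad3 (adjusted p = 0.0154), beside 8.46% of the genes it gave an adjusted p, and limma-voom called 0, beside 2.96%. The largest difference among the 9 was a log2 fold change of 0.26, about 1.20-fold.

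Across the whole table, library totals ran from 44890302 to 64763645 counts, and edgeR called 244 genes, of which 157 had more and 87 had less RNA in E-cad-KO. With upper-quartile scaling that split was 123 against 151. Without WT 3 the total was 9 genes. Cdh1 averaged 91.3 ± 15.4 CPM in E-cad-KO and 189 ± 44.1 CPM in WT (SD, n = 5 and n = 4), where CPM is the count scaled to a common library size with TMM factors. Every E-cad-KO library held less Cdh1 than every WT library, with -1.05 as its log2 fold change (SE 0.16, adjusted p by edgeR = 0.0275). The call was lost without E-cad-KO 1, 3, 4 or 5 or without WT 3, when the adjusted p ran from 0.0644 to 0.0904 and the log2 fold change from -1.04 to -0.996, and without WT 1 and WT 4 together (adjusted p = 0.0545, log2 fold change -0.94). Luminal keratin Krt8 averaged 1521 ± 123 CPM in E-cad-KO and 1164 ± 110 CPM in WT, and the epithelial adhesion gene Epcam averaged 759 ± 72.4 CPM in E-cad-KO and 677 ± 102 CPM in WT, so defining markers of epithelium were abundant in both groups.

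The promoters of 3 members are shown because they belong to the ligands with the most positive and the most negative log2 fold change and to the Smad with the smallest p. Each is RefSeq sequence on GRCm38.p6, read 5′ to 3′ on the gene's strand, from 250 bases before the annotated start to 50 bases after it. Capitals mark GC boxes (GGGCGG, read on either strand) and the TATA box (TATAAA). Tgfb1 lies at chr7:25686752-25687051 on the plus strand, Tgfb2 at chr1:186705940-186706239 on the minus strand and Smad3 at chr9:63757945-63758244 on the minus strand.
Tgfb1: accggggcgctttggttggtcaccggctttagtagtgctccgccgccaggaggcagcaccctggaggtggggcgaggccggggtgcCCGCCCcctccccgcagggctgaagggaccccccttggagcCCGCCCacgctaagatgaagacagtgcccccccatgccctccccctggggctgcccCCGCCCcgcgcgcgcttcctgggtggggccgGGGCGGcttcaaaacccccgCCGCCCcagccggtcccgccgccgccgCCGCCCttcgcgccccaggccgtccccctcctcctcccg
Tgfb2: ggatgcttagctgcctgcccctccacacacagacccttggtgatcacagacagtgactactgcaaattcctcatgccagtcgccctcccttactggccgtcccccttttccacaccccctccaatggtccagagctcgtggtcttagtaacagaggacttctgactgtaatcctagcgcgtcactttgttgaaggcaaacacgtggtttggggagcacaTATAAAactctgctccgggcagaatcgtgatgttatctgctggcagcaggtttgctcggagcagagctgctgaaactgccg
Smad3: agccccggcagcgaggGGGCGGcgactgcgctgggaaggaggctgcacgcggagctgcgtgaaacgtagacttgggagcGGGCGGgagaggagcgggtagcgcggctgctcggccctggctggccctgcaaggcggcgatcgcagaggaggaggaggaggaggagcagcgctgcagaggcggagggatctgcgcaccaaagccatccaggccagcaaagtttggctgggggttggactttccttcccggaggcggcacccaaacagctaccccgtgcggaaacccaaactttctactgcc

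The Tgfb1 window was 77.0% G and C and held 6 GC boxes and no TATA box. The Tgfb2 window was 54.3% G and C, held no GC box and had 1 TATA box, which began 31 bases before the annotated start. Smad3 stood between them with 67.7% G and C and 2 GC boxes. Of 32851 promoter windows of the same length, 35.7% held a GC box and 13.6% a TATA box on either strand, and the median G and C content was 52.7%. The Smad element CAGAC was in 49.6% of all windows and occurred 2 times in Tgfb2, at 221 and 204 bases before the start, and not in Tgfb1 or Smad3. The AP-1 site TGANTCA (7.81% of windows), the cyclic AMP element TGACGTCA (1.79%) and the TEAD element CATTCC (14.7%) matched none of these 3 windows. RefSeq windows were found for 5 of the 9 members. A match describes letters and not binding.

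**Figure D1:**
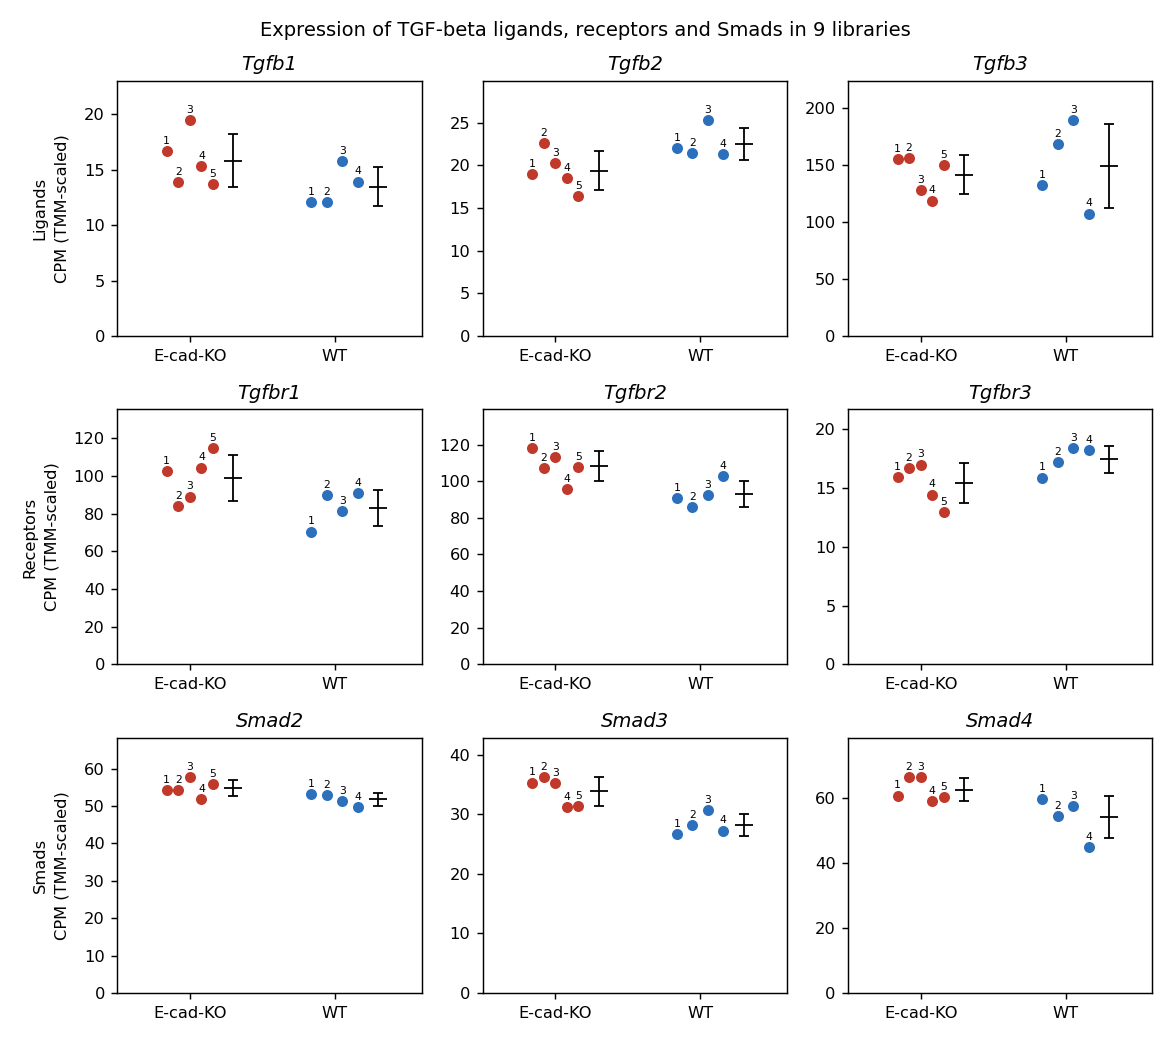
CPM (counts scaled to a common library size) of the 9 genes, 1 panel each, with E-cad-KO libraries in red and WT libraries in blue. Points are libraries with their replicate numbers, and black marks are the group mean ± SD. The groups overlap in 8 of the 9 panels, the exception being Smad3.

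Among the ligands, Tgfb3 was far the most abundant. Per kilobase of merged exons, which allows levels to be compared between genes, Tgfb3 averaged 41.8 ± 5.05 CPM per kb in E-cad-KO and 44.1 ± 10.8 CPM per kb in WT (SD, n = 5 and n = 4). On the same scale Tgfb2 averaged 3.35 ± 0.40 in E-cad-KO and 3.90 ± 0.33 in WT, and Tgfb1 3.13 ± 0.47 in E-cad-KO and 2.67 ± 0.35 in WT. Tgfb3 therefore made up 86.5 ± 2.10% of the 3 ligands' summed level per kb in E-cad-KO and 86.7 ± 2.64% in WT. With the longest annotated transcript as the length, 2573 bases for Tgfb1 against 5042 bases of merged exons, Tgfb1 came to 12.0 ± 2.37% of the ligands in E-cad-KO and 9.998 ± 2.19% in WT.

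Tgfb1 (ENSMUSG00000002603; GRCm38 chromosome 7, 25687002 to 25705077), the ligand best known from epithelial to mesenchymal transition, held 16.7, 13.9, 19.5, 15.3 and 13.7 CPM in E-cad-KO 1 to 5 and 12.1, 12.0, 15.7 and 13.9 CPM in WT 1 to 4. Only E-cad-KO 1 and 3 stood above all WT libraries, so the groups overlapped. The log2 fold change of Tgfb1 was 0.23 (SE 0.13, 95% confidence interval -0.05 to 0.51, edgeR adjusted p = 0.393), and without E-cad-KO 3 it was 0.15.

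Tgfb2 (ENSMUSG00000039239; chromosome 1, 186622792 to 186705989), a ligand needed in heart and craniofacial development, held 19.0, 22.7, 20.3, 18.5 and 16.4 CPM in E-cad-KO 1 to 5 and 22.1, 21.5, 25.3 and 21.3 CPM in WT 1 to 4. All but E-cad-KO 2 lay below the lowest WT library. Its log2 fold change was -0.22 (SE 0.10, interval -0.43 to -0.005, unadjusted p = 0.0457, edgeR adjusted p = 0.284).

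Tgfb3 (ENSMUSG00000021253; chromosome 12, 86056745 to 86079041), a ligand known from palate formation and from mammary involution, held 155, 156, 128, 119 and 149.8 CPM in E-cad-KO 1 to 5 and 132, 168, 189 and 107 CPM in WT 1 to 4. The WT libraries spread on both sides of all E-cad-KO libraries, with the highest and lowest values of the 9 in WT 3 and WT 4. The log2 fold change of Tgfb3 was -0.08 (SE 0.16, interval -0.43 to 0.28, edgeR adjusted p = 0.869), and with 1 library left out it ran from -0.20 (without WT 4) to 0.06 (without WT 3). Its coefficient of variation in WT, 24.5%, was the largest among the 9 genes, where the others ran down to 3.15% in Smad2.

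The exons of Tgfb2, Tgfb3 and Tgfbr3 overlap those of other annotated genes. Over the 9 libraries those partners held at most 105 counts, while Tgfbr3, the lowest of the 3 genes, held 8332. Whether counting used the strand is not given in the sources used here.

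**Figure D2:**
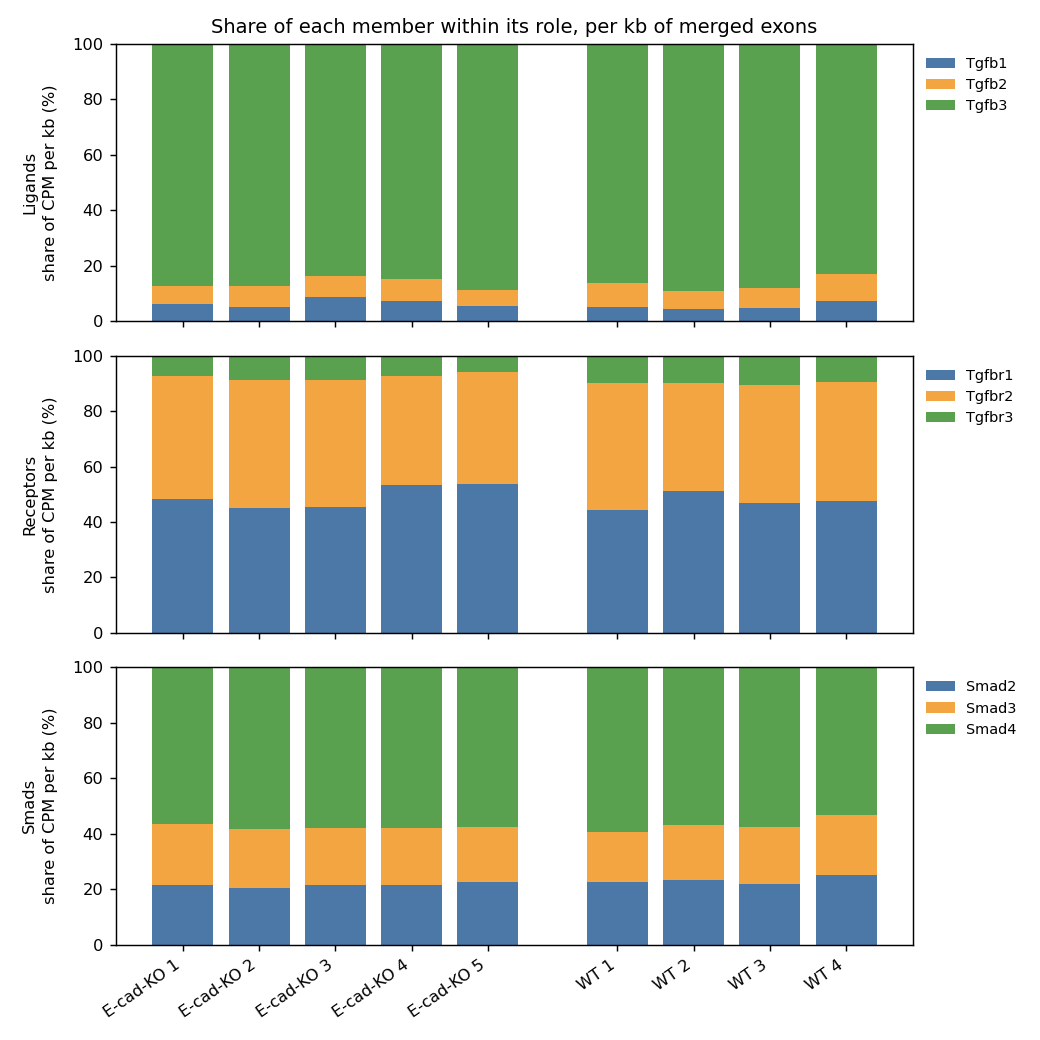
Share of each gene in the summed CPM per kb of merged exons of its role, in percent, for each E-cad-KO library and each WT library. Tgfb3 takes 83.1% to 89.1% of the ligand level in every library, and the Tgfbr3 segment is thinner in each E-cad-KO library than in any WT library.

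The signalling receptors were present at similar levels to each other, and the co-receptor was scarcer. Per kb of merged exons, Tgfbr1 averaged 15.1 ± 1.89 CPM in E-cad-KO and 12.7 ± 1.45 CPM in WT, Tgfbr2 averaged 13.2 ± 1.01 CPM in E-cad-KO and 11.3 ± 0.87 CPM in WT, and Tgfbr3 averaged 2.36 ± 0.26 CPM in E-cad-KO and 2.67 ± 0.18 CPM in WT (SD, n = 5 and n = 4). Tgfbr1 exceeded Tgfbr2 in 6 of the 9 libraries, so these neighbours in the order did not separate.

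Tgfbr1 (ENSMUSG00000007613; chromosome 4, 47353222 to 47414931), the type I receptor kinase, held 103, 84.0, 89.1, 104 and 115 CPM in E-cad-KO 1 to 5 and 70.5, 89.9, 81.3 and 90.9 CPM in WT 1 to 4. E-cad-KO 1, 4 and 5 stood above all WT libraries, while 2 and 3 lay within their range. The log2 fold change of Tgfbr1 was 0.25 (SE 0.10, interval 0.02 to 0.48, unadjusted p = 0.0361, edgeR adjusted p = 0.257).

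Tgfbr2 (ENSMUSG00000032440; chromosome 9, 116084293 to 116175360), the type II kinase that binds the ligand first, held 118, 107, 113, 95.8 and 108 CPM in E-cad-KO 1 to 5 and 90.6, 86.0, 92.3 and 103 CPM in WT 1 to 4. WT 4 reached into the E-cad-KO range, and the other WT libraries lay below it. Tgfbr2 had the second smallest p of the members, with a log2 fold change of 0.22 (SE 0.07, interval 0.06 to 0.38, unadjusted p = 0.0113, edgeR adjusted p = 0.155).

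Tgfbr3 (ENSMUSG00000029287; chromosome 5, 107106570 to 107289629) encodes betaglycan, a co-receptor that presents ligand, TGF-beta2 above all, to the type II receptor. It held 15.96, 16.7, 17.0, 14.5 and 13.0 CPM in E-cad-KO 1 to 5 and 15.9, 17.3, 18.4 and 18.3 CPM in WT 1 to 4. All E-cad-KO libraries lay under the WT mean, but only 4 and 5 under its lowest library. The log2 fold change of Tgfbr3 was -0.18 (SE 0.09, interval -0.39 to 0.03, edgeR adjusted p = 0.372), and without E-cad-KO 5 it was -0.11.

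Smad4 was the most abundant of the 3 member Smads per kb. It averaged 16.8 ± 0.96 CPM per kb in E-cad-KO and 14.6 ± 1.74 CPM per kb in WT, while Smad2 averaged 6.25 ± 0.25 in E-cad-KO and 5.89 ± 0.19 in WT, and Smad3 averaged 6.11 ± 0.44 in E-cad-KO and 5.09 ± 0.32 in WT (SD, n = 5 and n = 4). Smad4 made up 57.7 ± 0.70% of the summed level per kb of these 3 Smads in E-cad-KO and 56.9 ± 2.59% in WT.

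Smad2 (ENSMUSG00000024563; chromosome 18, 76241580 to 76310963), a receptor-activated Smad, was the steadiest gene of the 9. It held 54.3, 54.3, 57.8, 51.9 and 55.9 CPM in E-cad-KO 1 to 5 and 53.2, 52.9, 51.3 and 49.6 CPM in WT 1 to 4. The ranges overlapped through E-cad-KO 4 alone. The log2 fold change of Smad2 was 0.08 (SE 0.05, edgeR adjusted p = 0.443), and its interval of -0.03 to 0.19 is the narrowest among the members.

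Smad3 (ENSMUSG00000032402; chromosome 9, 63646767 to 63757994), the receptor-activated Smad that binds DNA directly, held 35.3, 36.3, 35.2, 31.2 and 31.3 CPM in E-cad-KO 1 to 5 and 26.7, 28.1, 30.7 and 27.2 CPM in WT 1 to 4. Every E-cad-KO library stood above every WT library, by a narrow margin between E-cad-KO 4 and WT 3. Smad3 had the smallest p among the members, with a log2 fold change of 0.26 (SE 0.07, interval 0.11 to 0.42, unadjusted p = 0.00347, edgeR adjusted p = 0.0909), which did not pass the threshold. With each library left out in turn, its log2 fold change ran from 0.24 to 0.31 and its adjusted p from 0.105 to 0.192.

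Smad4 (ENSMUSG00000024515; chromosome 18, 73639009 to 73703780), the common partner of the activated Smads, held 60.6, 66.3, 66.4, 58.8 and 60.2 CPM in E-cad-KO 1 to 5 and 59.4, 54.4, 57.4 and 44.9 CPM in WT 1 to 4. WT 4 stood far under the other libraries, and E-cad-KO 4 fell within the WT range. The log2 fold change of Smad4 was 0.21 (SE 0.08, interval 0.02 to 0.39, unadjusted p = 0.0299, edgeR adjusted p = 0.234), and without WT 4 it was 0.13.

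**Figure D3:**
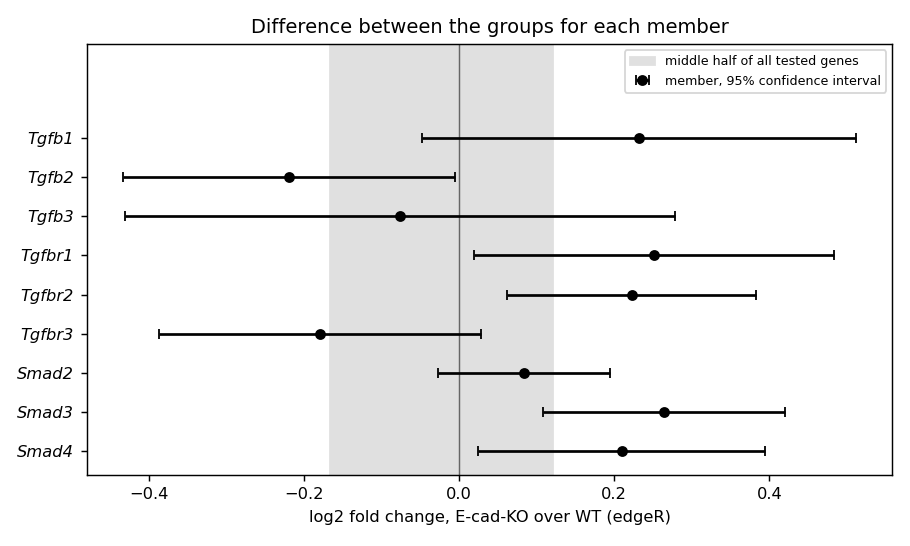
Log2 fold change (E-cad-KO over WT, edgeR) of each gene with its 95% confidence interval, and in grey the interquartile range of all tested genes, from -0.17 to 0.12. Points run from -0.22 for Tgfb2 to 0.26 for Smad3, and intervals of 5 genes lie to one side of 0 before adjustment over all genes.

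Ordered by level per kb, Tgfb3 came first in all 9 libraries and was followed by Smad4, Tgfbr1, Tgfbr2, Smad2, Smad3, Tgfb2, Tgfb1 and Tgfbr3. Tgfbr2 exceeded Smad2, and Smad3 exceeded Tgfb2, in all 9 libraries. The other neighbours did not keep their order everywhere: Smad4 exceeded Tgfbr1 in 6 libraries, Smad2 exceeded Smad3 in 7, Tgfb2 exceeded Tgfb1 in 7 and Tgfb1 exceeded Tgfbr3 in 6. With the length of the longest transcript, Tgfb1 and Tgfb2 changed places and the other ranks stayed as they were.

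Ratios of genes within a library do not depend on how libraries are scaled. All 9 pairs within a role were compared by an exact two-sided permutation test of the log2 count ratio, and 0 of 9 passed a Benjamini-Hochberg adjusted p of 0.05. The ratio that separated the groups was Tgfbr3 to Tgfbr2. There were 0.135, 0.156, 0.150, 0.151 and 0.121 Tgfbr3 counts per Tgfbr2 count in E-cad-KO 1 to 5 and 0.176, 0.201, 0.199 and 0.178 in WT 1 to 4. All E-cad-KO libraries lay below all WT libraries, with a log2 difference of -0.40 (exact permutation p = 0.00794, the smallest the test can give, adjusted p = 0.0714), so a single pair could not pass the threshold in this design.

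The ratio of Tgfb2 to Tgfb1 was lower in 4 of 5 E-cad-KO libraries than in every WT library. It was 1.14, 1.64, 1.04, 1.21 and 1.20 counts of Tgfb2 per count of Tgfb1 in E-cad-KO 1 to 5 and 1.83, 1.78, 1.61 and 1.53 in WT 1 to 4. The log2 difference was -0.45 (exact permutation p = 0.0317, adjusted p = 0.107), E-cad-KO 2 being the library that overlapped. Tgfbr3 to Tgfbr1 (log2 difference -0.43) and Smad3 to Smad2 (log2 difference 0.18) had the same adjusted p of 0.107 in this exact permutation test, again with 4 of 5 E-cad-KO libraries beyond the WT range. Tgfbr2 to Tgfbr1 differed by -0.03 on the log2 scale (exact permutation p = 0.817), and Smad4 to Smad3 by -0.05 (exact permutation p = 0.627).

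The rest of the pathway was read from 6 lists with 81 genes, 72 of them tested. Of these, 51 had a positive log2 fold change, beside 48.0% of all tested genes. By edgeR 1 was called higher and 0 were called lower, beside 1.41% of all tested genes called. An unadjusted p under 0.05 was reached by 15, 13 of them higher, beside 16.7% of all tested genes (8.74% higher and 7.99% lower). The libraries of the groups did not overlap for 8 of the 72, beside 8.11% of all tested genes. The median log2 fold change of the 72 was 0.10, beside -0.01 for all tested genes. DESeq2 called 10 of them, beside 8.46% over all genes, and limma-voom called 3, beside 2.96%. The called gene was Ltbp1, whose product holds latent TGF-beta in the matrix. It averaged 30.0 ± 1.11 CPM in E-cad-KO and 21.8 ± 1.03 CPM in WT (log2 fold change 0.46, edgeR adjusted p = 0.011), and without WT 3 the call was lost (adjusted p = 0.0643).

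Of 12 genes of latency, storage and activation, 9 had a positive log2 fold change, with a median of 0.22 and Ltbp1 as the called member. Of 20 tested regulators and partners of receptors and Smads, 17 were positive, 0 were called and the median was 0.09. Pmepa1, which sequesters receptor-activated Smads, averaged 233 ± 13.98 CPM in E-cad-KO and 174 ± 25.9 CPM in WT (log2 fold change 0.43, edgeR adjusted p = 0.0574). Tgif1, a Smad corepressor, averaged 136 ± 9.97 CPM in E-cad-KO and 112 ± 4.91 CPM in WT (0.28, edgeR adjusted p = 0.0633). Neither passed the threshold. Both were named for the smallest p of this list, and for both every E-cad-KO library stood above every WT library. The groups did not overlap for 4 of the 20 tested genes of the list, beside 8.11% of all tested genes. With the filter at 1 count in all or at 1 CPM in 4 libraries, Pmepa1 was called (edgeR adjusted p = 0.0453 and 0.0467), and DESeq2 called both Pmepa1 (adjusted p = 0.00119) and Tgif1 (adjusted p = 0.00283). Without WT 1 and WT 4 the log2 fold change of Pmepa1 was 0.26.

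Of the 5 other Smads all had a positive log2 fold change and 0 were called. Smad7, the inhibitory Smad that is itself a target of the pathway, averaged 15.99 ± 1.59 CPM in E-cad-KO and 12.2 ± 0.86 CPM in WT (log2 fold change 0.39, edgeR adjusted p = 0.0673), without overlap between the groups. DESeq2 (adjusted p = 0.00402) and limma-voom (adjusted p = 0.0400) called it. Smad6, the inhibitor of the bone morphogenetic protein (BMP) branch, averaged 5.81 ± 1.02 CPM in E-cad-KO and 4.57 ± 0.96 CPM in WT (0.35, edgeR adjusted p = 0.358), and without WT 1 and WT 4 its log2 fold change was 0.15.

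Other receptors and other ligands of the superfamily centred near 0. Among 11 receptors 6 were positive, 0 were called and the median was 0.04, with Acvr1, a type I receptor of the BMP branch, at a log2 fold change of 0.32 (edgeR adjusted p = 0.147) and Acvr2a, a type II activin receptor, at 0.16 (adjusted p = 0.353). Without WT 4 the log2 fold change of Acvr2a was 0.08, and Acvr1 was called by DESeq2 (adjusted p = 0.0491). Acvr2a shares exonic bases with Orc4 on the other strand. Among 16 tested ligands 9 were positive and 0 were called, with a median of 0.05. Bmp2 averaged 14.4 ± 2.75 CPM in E-cad-KO and 7.78 ± 2.08 CPM in WT (log2 fold change 0.89, edgeR adjusted p = 0.0613), with no overlap between libraries, and DESeq2 called it (adjusted p = 0.000758). Bmp4 averaged 6.53 ± 1.55 CPM in E-cad-KO and 3.51 ± 1.05 CPM in WT (0.90, edgeR adjusted p = 0.0834), and without WT 4 it was called (log2 fold change 1.12, edgeR adjusted p = 0.0349), as it was by DESeq2 (adjusted p = 0.00423) and limma-voom (adjusted p = 0.0335). Among 8 tested secreted binders 5 were positive and 0 were called, with a median of 0.08. Twsg1 and Grem1, whose products bind BMPs, stood at log2 fold changes of 0.12 (edgeR adjusted p = 0.430) and -0.73 (edgeR adjusted p = 0.439). Without WT 1 the value of Twsg1 was 0.07, and without WT 4 that of Grem1 was -0.19.

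**Figure D4:**
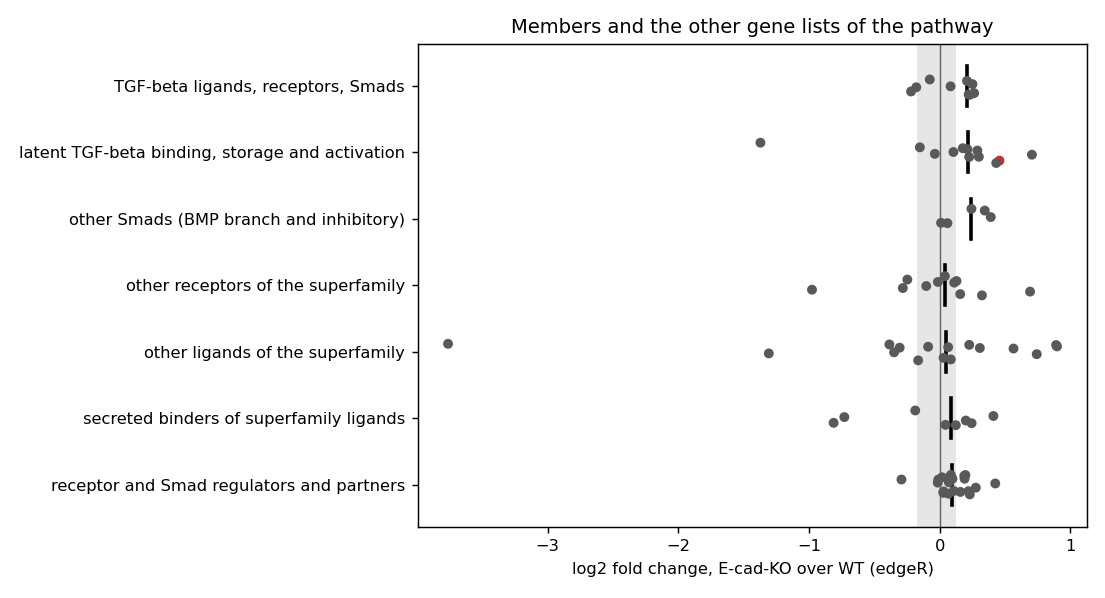
Log2 fold change (E-cad-KO over WT, edgeR) of each tested gene of the members and of the 6 other lists, with a black bar at each list's median. Grey marks the interquartile range of all tested genes and red marks Ltbp1, the only called gene shown.

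Genes used as markers of other cells were also counted in these libraries, which came from gels extracted whole. Which cells made this RNA was not tested. Summed over the 12 macrophage markers without Cd14, the most abundant, the level ran from 26.3 to 152 CPM in E-cad-KO and from 18.8 to 365 CPM in WT, highest in WT 4. Over the 10 fibroblast markers without Postn it ran from 145 to 242 CPM in E-cad-KO and from 68.1 to 377 CPM in WT. Over the 10 endothelial markers without Flt1 it ran from 5.15 to 8.86 CPM in E-cad-KO and from 6.57 to 15.4 CPM in WT, and over the 7 T cell markers without Lck it reached at most 0.475 CPM, with Cd3e at 0 in every library. The 7 pericyte and smooth muscle markers without Acta2 summed to 115 to 121 CPM in E-cad-KO and 113 to 158 CPM in WT. Most of that sum was Notch3 (mean 51.7 CPM in E-cad-KO and 62.2 CPM in WT) and Mcam (mean 51.8 CPM in E-cad-KO and 54.1 CPM in WT). In all 5 of these lists 0 genes were called, and the ranges of the groups overlapped. Log2 fold changes were negative for 9 of 11 tested macrophage markers (median -0.47), 7 of 10 fibroblast markers (median -0.15), 7 of 8 endothelial markers (median -0.56), 7 of 7 pericyte and smooth muscle markers (median -0.22) and 1 of 2 T cell markers. Of the 8 tested endothelial genes, 2 were lower at an unadjusted p under 0.05 by edgeR, beside 7.99% of all tested genes. These were Pecam1 and Tek (edgeR adjusted p = 0.118 and 0.158), and Tek averaged only 0.12 CPM in E-cad-KO and 0.35 CPM in WT. Flt1 had a positive log2 fold change of 0.13. With Flt1, the endothelial sum ran from 18.1 to 28.2 CPM in E-cad-KO and from 23.4 to 26.1 CPM in WT.

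Among epithelial markers, the 7 luminal genes summed to 4035 to 5069 CPM in E-cad-KO and 3226 to 4441 CPM in WT, with 6 positive log2 fold changes and a median of 0.30. The 7 basal and myoepithelial genes summed to 3682 to 8396 CPM in E-cad-KO and 2467 to 12468 CPM in WT, with 6 of 7 negative log2 fold changes and a median of -0.15. In both lists 0 genes were called. At an unadjusted p under 0.05 by edgeR, 5 of the 7 luminal genes were higher in E-cad-KO, beside 8.74% of all tested genes. For 2 of them the groups did not overlap, beside 8.11% of all tested genes, and Krt8 was near the threshold (edgeR adjusted p = 0.053). Of the basal and myoepithelial genes, 0 reached an unadjusted p under 0.05. Both sums were lowest in WT 4. That library also held the least Smad2, Smad4 and Tgfb3 of the 9, but the most Tgfbr1 and Tgfbr2 of the WT libraries. The part of cell makeup in the members' values was not tested, and in bulk samples fewer cells of a type and less RNA per cell cannot be told apart.

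Similar patterns across the 9 libraries were sought among 14177 named genes by Pearson's r of log2 CPM, given as a description of the closest genes. Closest to Tgfb1 were Eftud2 (r = 0.97) and Dda1 (0.96), to Tgfb2 Pxmp4 (0.96) and Plet1 (0.96), and to Tgfb3 Vsir (0.93) and Cdhr1 (0.92). Closest to Tgfbr1 were Acsl4 (0.97) and Smarcad1 (0.97), to Tgfbr2 Atxn7l3 (0.98) and Epha2 (0.97), and to Tgfbr3 Tsr3 (0.97) and Chrm3 (0.96). Closest to Smad2 were Xpot (0.97) and Lsm14b (0.95), to Smad3 Mmp17 (0.97) and Rnf10 (0.97), and to Smad4 Chd4 (0.99) and Rap1gds1 (0.98). No member was among the closest genes of another member. Of these 18 genes only Rnf10 was called between the groups (log2 fold change 0.29, edgeR adjusted p = 0.0458). With the 2 libraries farthest from the member's median left out, the values of r ran from 0.81 to 0.97.

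**Figure D5:**
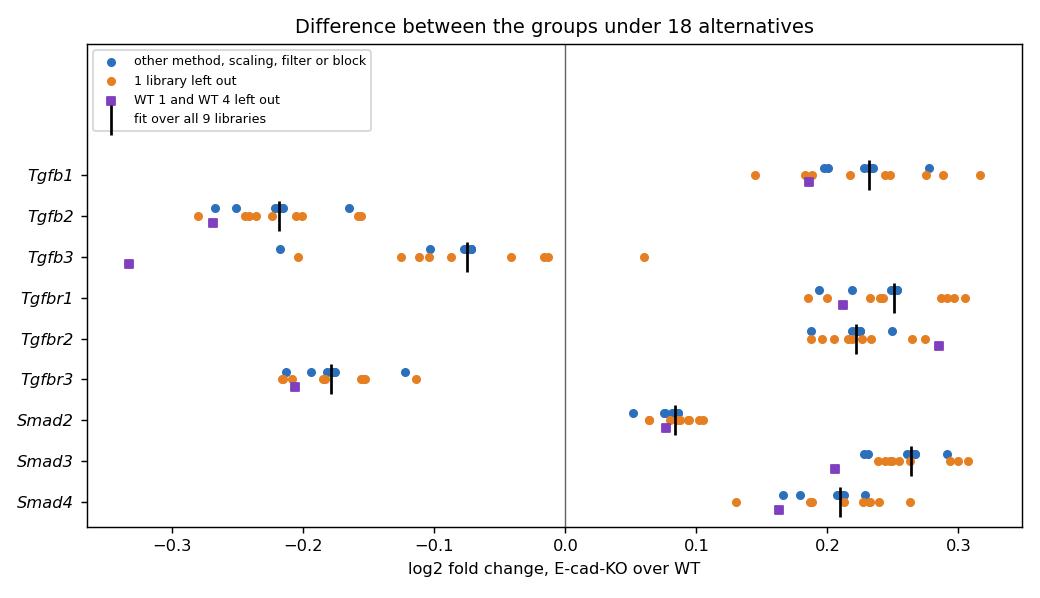
Log2 fold change (E-cad-KO over WT) of each gene in the fit over all 9 libraries (black tick) and under 18 alternatives, coloured by kind. Each gene stays on its side of 0 except Tgfb3, which reaches 0.06 without WT 3 and -0.33 without WT 1 and WT 4.

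Under 18 other settings, 8 of the 9 members kept the sign of their log2 fold change and Tgfb3 did not. Over these settings Smad3 ran from 0.21 to 0.31, Tgfbr1 from 0.19 to 0.30, Tgfbr2 from 0.19 to 0.28, Tgfb1 from 0.15 to 0.32 and Smad4 from 0.13 to 0.26. Smad2 ran from 0.05 to 0.10, Tgfb2 from -0.28 to -0.16 and Tgfbr3 from -0.22 to -0.11. The lowest count of any member in a library was 706, for Tgfbr3, with a counting error of 3.76%, beside coefficients of variation between libraries of 10.9% in E-cad-KO and 6.63% in WT for that gene.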

How the data were processed

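RNA sequencing of 9 organoid samples was analysed from 1 deposited table of raw gene counts. Per the labels' protocols, frozen gels were extracted whole and a stranded mRNA library kit was used. Per the submitters' processing notes the tools were Bowtie2, TopHat2 and HTSeq on GRCm38. Tool versions were not given in the sources used here, nor were the annotation and the strand setting.

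Symbols (51633 of 51912 genes), positions and exons came from GENCODE M21 on GRCm38. Per-kb levels divide CPM by merged exon length. Genes were tested with edgeR 4.0.16 (R 4.3.3), quasi-likelihood, with TMM factors, robust dispersions, the filterByExpr filter and group as the only term, with Benjamini-Hochberg adjustment over 17289 genes and two-sided p-values. Standard errors are the log2 fold change over the square root of F, and 95% intervals use the t quantile. Alternatives were DESeq2 1.42.0, limma 3.58.1 (voom with quality weights), other size factors, filters and dispersions, a block for the replicate number, fits without each library, and WT 1 and WT 4 left out together. Within-role ratios used exact permutation tests. The edgeR fit was tested on simulated counts. The simulated folds were larger than that of any member, so this does not show how often differences as small as theirs would be called. No 2 libraries agreed within sampling noise (smallest chi-square per degree of freedom 13.7).

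The members, lists, tests and alternatives were chosen with earlier results of these data known. Named are the members, Cdh1, every called gene of a pathway list or else its 2 smallest p-values, the most abundant marker, and the 2 closest genes of each member. Epcam was named in addition to the rule, as an epithelial marker, and so were Cd3e, which was at 0, and Orc4, as an overlapping gene. Pecam1, Tek, Notch3 and Mcam were also named in addition, chosen after their values were seen.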

Additional observations from a re-analysis of the deposited data

Results flagged for a closer look

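In 34 groups of 4 or 5 libraries checked with Dixon's test, over the 9 members, Cdh1 and 7 marker sums, 1 library, E-cad-KO 2, stood apart from the rest of its group in 2 of them, and chance gives about 1 in 20 groups. E-cad-KO 2 held 118 CPM of Cdh1, the highest of the 5 E-cad-KO libraries, with the others between 79.0 and 87.3 CPM. E-cad-KO 2 also had the lowest sum of macrophage markers among the E-cad-KO libraries, 346 CPM, of which Cd14 made up most. No value of a TGF-beta ligand, receptor or Smad was set apart in this way. Among the E-cad-KO libraries, only E-cad-KO 2 had a Tgfb2 level and a ratio of Tgfb2 to Tgfb1 within the WT range. Other members went the other way in E-cad-KO 2. Its Smad3 level, 36.3 CPM, was the highest of all libraries, and its Smad4 level, 66.3 CPM, lay above every WT library.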

How the results depend on the processing

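Of 162 results for members under alternatives, 160 kept their direction and side of the threshold. Smad3 was called by DESeq2 alone (1 member called, where edgeR called 0), and Tgfb3 turned to 0.060 without WT 3 (-0.20 to 0.060 with 1 library left out). Calls over all genes moved from 244 to 1206 with DESeq2, 511 with limma-voom and 79 without WT 1 and WT 4, and ran from 9 (without WT 3) to 334 (without WT 4) with 1 library left out, being under 244 without any other library: 26 to 54 without an E-cad-KO library, 122 without WT 1 and 105 without WT 2. Called genes of the 6 pathway lists, 1 in the fit reported, were 2 with either other filter, 10 with DESeq2, 3 with limma-voom and 0 (without WT 3) to 3 (without WT 4) with 1 library left out. Members called stayed at 0 with any 1 library left out. Calls over all genes fell in most of these fits, so those 0 calls say little about stability. The exact test of a ratio could hardly pass with 8 libraries (smallest adjusted p 0.0857), so its 0 calls there say nothing about stability. With the replicate block, 0 genes, 0 members and 0 pathway genes were called, by edgeR, with 2418 genes at an unadjusted p under 0.05. The labels' numbers were not shown to pair samples: same-numbered libraries correlated at -0.32, 0.23, -0.03 and 0.28 after group means were removed, and 3 of 8 libraries correlated best with their own number. The difference between groups (E-cad-KO minus WT) in the log2 ratio of Tgfbr2 to Tgfbr1 ran from -0.10 to 0.038 with 1 library left out (0.038, 0.030 and 0.038 without E-cad-KO 4, E-cad-KO 5 or WT 1) and was 0.077 without WT 1 and WT 4. That for Smad4 to Smad3 ran from -0.12 to 0.027 (without WT 1), and that for Tgfb3 to Tgfb2 was -0.067 without WT 1 and WT 4. The cause of these moves was not tested.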
